A study of Mus musculus with 4 samples.

Results

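Replication-dependent histone genes encode the core histones H2A, H2B, H3 and H4 and the linker histone H1, which package newly copied DNA. They were picked by name: a probe set belonged to the group if any gene in its platform annotation had a symbol starting with Hist1h, Hist2h, Hist3h or Hist4h. The annotation used here carries the current symbols (such as H2bc8 for Hist1h2bg), so the older symbols were looked up in RefSeq by Entrez gene ID. The rule found 58 of 35556 probe sets, and they covered 69 of the 70 mouse genes with such a symbol. The gene without a probe set was H2ac14. Of the 58 probe sets, 31 named 1 histone gene and no other gene, 26 were shared by several histone genes and 1 was shared by H2aw and Trim17. For 38 genes only shared probe sets existed. Within a core histone class (H2A, H2B, H3 or H4), the coding sequences of most genes are known to be very similar.

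The samples were LSK cells without Flt3, a bone marrow fraction rich in blood stem cells that is sorted for c-Kit and Sca-1 and against lineage markers. They were measured on 4 Affymetrix Mouse Gene 1.0 ST arrays. The 2 arrays labelled GABPα-deficient came from Mx1Cre-GABPa(FL/-) mice, with 1 floxed and 1 null allele of the gene for the DNA-binding subunit of the ETS factor GABP, and the 2 control arrays from Mx1Cre-GABPa(FL/+) mice, with 1 floxed and 1 wild-type allele. Both groups carried the Mx1Cre transgene, whose interferon-inducible promoter acts in many tissues, and both received pIpC. Cells were sorted 4 days after the final dose, the mice were 6-8 weeks old, and the strain is labelled C57/BL6, backcrossed for 4 generations. The controls also had a floxed allele that pIpC can delete, so the comparison sets 1 gene copy against 0 in fully recombined cells. Whether each sample was 1 animal, a pool or a repeat of the same cells is not labelled, so a p-value here reflects the spread of these 4 arrays, which may be technical.

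Most replication-dependent histone genes lie in clusters, with the largest on mouse chromosome 13 (the Hist1 genes, 56 of the 70), a smaller one on chromosome 3 (Hist2, 10 genes), 3 Hist3 genes on chromosome 11 and the Hist4 gene on chromosome 6. Their transcription is switched on as cells enter S phase, through the coactivator NPAT at nuclear histone locus bodies. Their mRNAs end in a stem-loop bound by SLBP in place of a poly(A) tail, and are degraded when DNA synthesis stops. Their level is widely used as a sign of cells in S phase. Since these are bulk samples, fewer cells of a type and less RNA per cell cannot be told apart in any value below.

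The promoters carry the short sequence elements known for these genes, and 4 are shown because they belong to the genes with the lowest difference in class H2B (H2bc8), the probe set with the smallest spread in class H2A (H2aw), the largest difference in class H1 (H1f1) and the highest level of all (H4c4). Each runs 5′ to 3′ from 250 bases before to 50 bases after the annotated start, from RefSeq on GRCm38.p6. The positions are chr13:23571150-23571449, plus strand, for H2bc8, chr11:58954435-58954734, plus strand, for H2aw, chr13:23763418-23763717, plus strand, for H1f1 and chr13:23581318-23581617, plus strand, for H4c4. Capitals mark CCAAT (the CCAAT box), TATAAA (the TATA box), ATTTGCAT (the octamer element known from H2B promoters) and CCGGAAG (a GABP-type ETS motif), each on either strand, and none of these motifs overlapped another.
H2bc8: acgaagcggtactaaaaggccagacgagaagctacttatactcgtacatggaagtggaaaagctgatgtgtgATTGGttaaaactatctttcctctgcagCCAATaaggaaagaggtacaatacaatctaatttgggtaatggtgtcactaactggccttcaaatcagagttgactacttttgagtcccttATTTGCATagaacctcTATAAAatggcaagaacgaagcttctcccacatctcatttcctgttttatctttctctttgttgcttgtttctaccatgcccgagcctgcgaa
H2aw: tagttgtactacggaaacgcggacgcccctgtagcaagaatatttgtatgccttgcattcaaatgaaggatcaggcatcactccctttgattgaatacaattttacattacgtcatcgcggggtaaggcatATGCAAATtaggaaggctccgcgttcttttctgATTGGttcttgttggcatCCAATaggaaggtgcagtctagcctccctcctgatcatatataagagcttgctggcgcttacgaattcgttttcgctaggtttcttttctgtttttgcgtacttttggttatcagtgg
H1f1: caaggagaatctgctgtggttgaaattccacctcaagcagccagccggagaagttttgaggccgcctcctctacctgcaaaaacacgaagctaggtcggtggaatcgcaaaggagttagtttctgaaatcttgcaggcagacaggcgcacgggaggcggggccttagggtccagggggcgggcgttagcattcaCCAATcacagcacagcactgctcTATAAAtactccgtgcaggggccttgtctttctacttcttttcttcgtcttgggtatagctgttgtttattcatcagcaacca
H4c4: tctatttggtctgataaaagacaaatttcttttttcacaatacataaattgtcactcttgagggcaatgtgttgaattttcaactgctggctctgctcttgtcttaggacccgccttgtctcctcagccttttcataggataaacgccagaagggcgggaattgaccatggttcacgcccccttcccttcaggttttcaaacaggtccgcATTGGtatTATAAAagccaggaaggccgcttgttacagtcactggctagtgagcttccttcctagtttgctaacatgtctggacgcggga

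The RefSeq promoter table used here held 62 of the 70 genes (63 windows). CCAAT stood in 85.7% of the histone windows, against 37.4% of all 32851 windows of this length. It was in every H1, H2A, H2B and H3 window and in 3 of 12 H4 windows. TATAAA, counted anywhere in the window and on either strand, stood in 55.6% of histone windows and 13.6% of all windows. It began at −32 from the start in H4c4, but at −137 in H4c9 and −250 in H4c6. A match is therefore not always a TATA box in its usual place. The octamer stood in 7 of 18 H2A and 7 of 17 H2B windows and in 0 windows of H1, H3 and H4, with 22.2% of histone and 1.74% of all windows. Where the windows of an H2A and an H2B gene overlap, the same octamer can count in both. CCGGAAG was found in 1 of 63 histone windows (1.59%), that of H1f4, and in 8.86% of all windows. A match is not a bound site, and its absence says only that the letters are not in the window.

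In 10 places an H2A and an H2B gene stood head to head with overlapping windows. H2bc8 shares 279 bases of its window, the octamer among them, with H2ac8. Among H2A and H2B genes with a probe set of their own, the median log2 difference between groups was 0.17 for the 9 with an octamer (−1.29 to 0.46) and 0.24 for the 4 without (0.20 to 0.47). The other 3 were not in the promoter table. Among the 9 are the head-to-head pairs H2ac8 with H2bc8 and H2ac1 with H2bc1. Each pair shares the same octamer, so these are not 9 separate octamers.

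On every array the histone probe sets were among the brightest. The median histone probe set stood at percentile 96.7 of the table by its mean over the 4 arrays. That percentile was 98.6 for shared probe sets and 91.3 for those of 1 gene. Values ran from 4.11 to 13.14 on the log2 scale of RMA, where the highest value of any probe set was 13.63 to 13.67 per array. How far signal near the top of the scale compresses differences was not tested. Gabpa itself had values of 6.43 and 7.85 on the deficient arrays, against 8.43 and 7.28 on the control arrays, so the groups overlapped. The exons its probes cover are not known here, and every direction below rests on the labels. Of 14 measured stem cell markers, 9 were lower and 0 higher on the deficient arrays at an unadjusted p under 0.05 in limma's fit, where 5.25% and 6.64% of all probe sets were. The log2 of their summed level was 10.75 and 10.95, against 12.90 and 12.83 on the control arrays. Kit, a receptor of the sorting gate, read 7.70 and 8.50 on the deficient arrays, against 10.21 and 10.21. Flt3, against which the cells were sorted, read 5.68 and 5.95 on the deficient arrays, against 8.43 and 9.27, and is 1 of the 9. Of 14 measured erythroid markers, 0 were lower and 11 higher, with log2 sums of 14.06 and 14.18, against 12.33 and 12.29. Of 13 macrophage markers 0 were lower and 4 higher, with log2 sums of 12.15 and 11.47, against 11.01 and 10.89. Of 14 stromal and endothelial markers 0 were lower and 7 higher, with log2 sums of 11.98 and 11.49, against 10.15 and 10.07. Of 11 B and plasma cell markers 0 were lower and 3 higher, with log2 sums of 11.37 and 11.99, against 10.96 and 10.75. Of 11 T and NK cell markers 0 were lower and 3 higher, but their log2 sums were 10.32 and 10.10, against 10.90 and 10.77, with Nkg7 at a difference of −1.98. Of 11 granulocyte and monocyte markers 1 was lower and 0 higher, with log2 sums of 13.81 and 13.28, against 13.80 and 13.61. No marker of any list stands at 0, since the lowest value in the table is 1.98. The part of a different mix of cells in the histone values was not tested.

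Histone values on the deficient arrays were set against those on the control arrays. No histone probe set passed an adjusted p under 0.05 in limma's fit, as for all probe sets, where 0% were called. At an unadjusted p under 0.05, 2 histone probe sets were higher on the deficient arrays, where 6.64% of all probe sets were, and 1 was lower, where 5.25% of all probe sets were. Together that is 5.17% of the histone probe sets, against 11.9% of all. With cyclic loess in place of the deposited scaling, the split of histone probe sets was the same, while that of all probe sets was 1191 higher and 2349 lower, against 2360 higher and 1865 lower as deposited. The 3 histone probe sets were both probe sets that contain H2aw and the one for H2bc8. The lowest adjusted p of any histone probe set was 0.407.

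The median log2 difference, deficient minus control, was 0.18 over the 58 histone probe sets, against 0.15 over all probe sets, a gap of 0.030. The gap was −0.030 without deficient replicate 2, −0.075 without control replicate 1 and 0.20 without control replicate 2, and 0.13 under cyclic loess, so its sign depended on single arrays. Differences above 0 made up 48 of 58, or 82.8%, against 66.3% of all probe sets. Both deficient arrays lay above both control arrays for 13 histone probe sets, where 38.9% of all probe sets did, and below for 2, where 14% of all did. The remaining 43 overlapped, so 25.9% of histone probe sets separated the groups, against 52.9% of all. In the brighter 50% of the table, 24.5% of 53 histone probe sets separated the groups, against 52.2% of all, with medians of 0.18 and 0.079. Many of the 58 measure the same genes, so these are not counts of independent genes, and 2 pairs of shared probe sets held identical values on all 4 arrays. Without control replicate 1 the histone median was 0.036, and without control replicate 2 it was 0.39, so it depended on which control array was used. With any 1 array left out, 23 of the 58 differences changed sign and 54 moved by over 1.5 times. The 4 that did not were H1f6, H2bu1-ps, H2aw and the probe set of H2aw and Trim17.

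**Figure D1:**
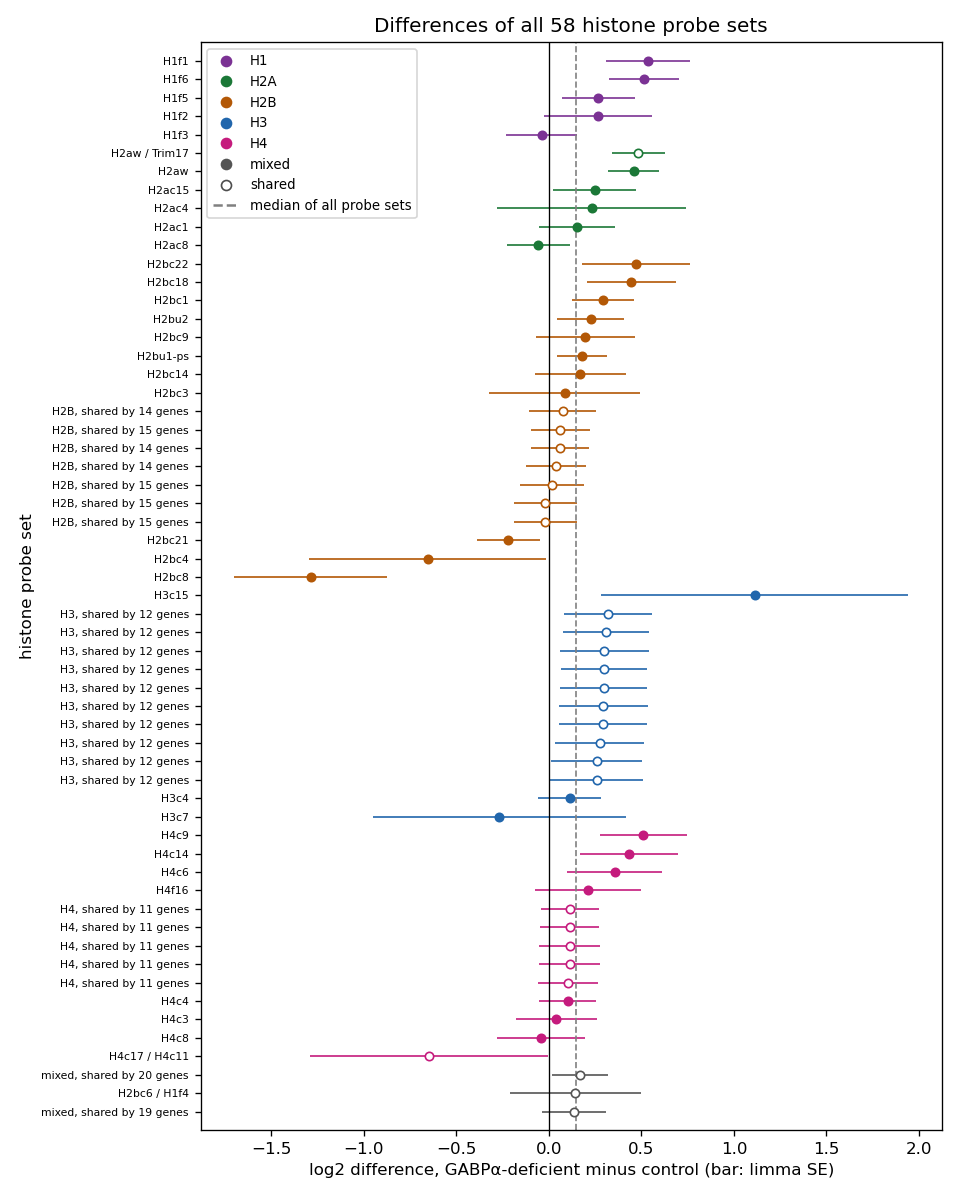
Log2 difference, GABPα-deficient minus control (x axis), of each of the 58 histone probe sets (rows, by class), with bars for limma's SE. Filled points are probe sets of 1 gene, open points are shared ones, and the dashed line is the median of all probe sets, 0.15; most points lie between 0 and 0.5, and H2bc8 lies lowest at −1.29.

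H2B pairs with H2A in the nucleosome, and its class held the lowest difference of any histone probe set. Among the 18 H2B probe sets the median difference was 0.069 (−0.012 with array medians subtracted), from −1.29 to 0.47, with 13 above 0 and 5 below. H2bc8 read 9.22 and 8.80 on the deficient arrays, against 9.80 and 10.79 on the control arrays. Both deficient arrays lay below both controls, though the controls differed by more than the deficient arrays did. The means were 9.01 ± 0.30 and 10.30 ± 0.70 (SD, n = 2 each), and the difference was −1.29 (SE 0.41, 95% interval −2.46 to −0.11, limma unadjusted p = 0.0384, adjusted p = 0.409). With 1 array left out it ran from −1.78 to −0.79. The head-to-head partner H2ac8 read 4.65 and 4.90, against 4.91 and 4.75, a difference of −0.055 (SE 0.17) at percentile 25.1 of the table.

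H2bc4 and H2bc21 were the other H2B genes with a probe set of their own and a difference below 0. In human cells the corresponding genes are known to make some polyadenylated mRNA besides the stem-loop form. Any part of that form in these values was not tested. H2bc4 read 9.29 and 7.68 on the deficient arrays, against 8.84 and 9.44 on the control arrays. The groups overlapped, since deficient replicate 1 lay above control replicate 1. Its difference was −0.65 (SE 0.64), and without deficient replicate 2 it was 0.155. H2bc21 read 9.97 and 9.69, against 10.06 and 10.03, a difference of −0.22 (SE 0.17, 95% interval −0.70 to 0.26) with both deficient arrays below both controls.

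The other H2B genes with a probe set of their own had differences from 0.086 to 0.47. H2bc18 read 9.14 and 8.71 on the deficient arrays, against 8.31 and 8.65 (difference 0.45, SE 0.24). H2bc22 read 7.08 and 7.80, against 6.93 and 7.01 (difference 0.47, SE 0.29, and 0.11 without deficient replicate 2). H2bc1, which encodes a histone known from the testis, read 6.95 and 7.12, against 6.64 and 6.84 (difference 0.29, SE 0.17). In all 3 both deficient arrays lay above both controls, with gaps of 0.061 to 0.10 between the nearest arrays. H2bu1-ps, a pseudogene by its symbol, also separated, at 6.88 and 6.88 against 6.67 and 6.73. So did H2bu2, at 5.77 and 5.70 against 5.34 and 5.67. Of the 11 H2B probe sets of 1 gene, 5 separated upwards and 2 downwards, where 38.9% and 14% of all probe sets did. H2bc14, H2bc9 and H2bc3 overlapped, with differences of 0.17, 0.20 and 0.086, which were −0.10, −0.096 and −0.34 without control replicate 1.

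The 7 shared H2B probe sets, each naming 14 or 15 H2B genes, all overlapped between the groups. They read 12.17 to 12.55 and 12.39 to 12.73 on the deficient arrays, against 12.21 to 12.51 and 12.39 to 12.67 on the control arrays. Differences were −0.018 to 0.075, although H2bc8 and H2bc4 are among the genes these probe sets name. With 1 array left out they ran from −0.13 to 0.21. The one with the smallest unadjusted p had a 95% interval of −0.44 to 0.59.

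**Figure D2:**
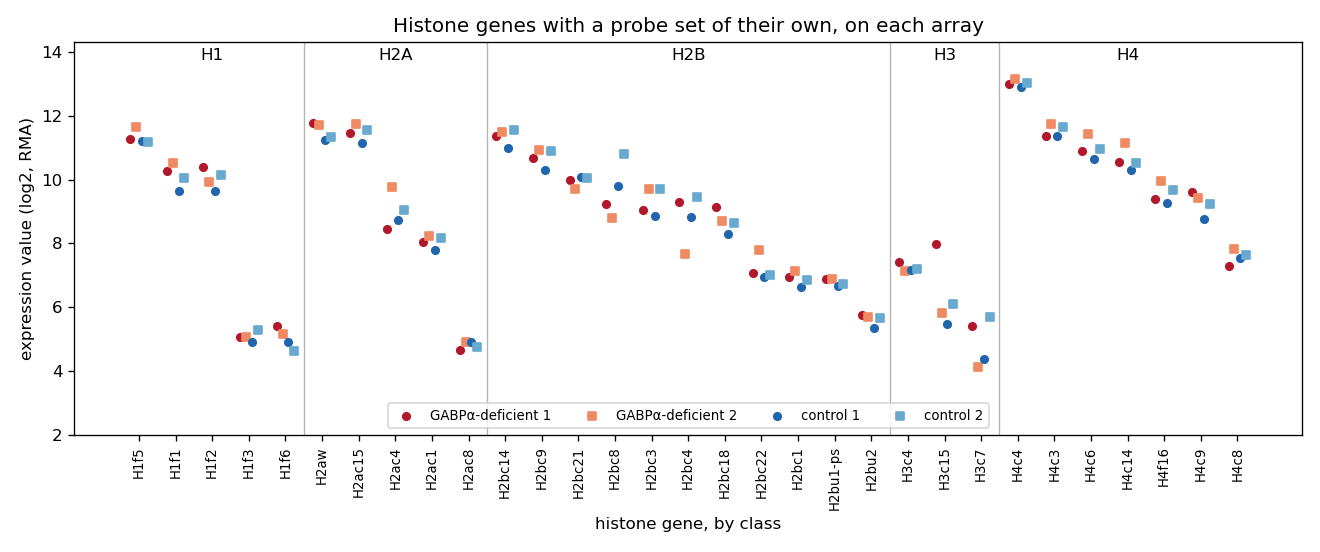
RMA log2 value (y axis) of the 31 histone genes with a probe set of their own (x axis, by class and falling level), with 1 point per array in the order GABPα-deficient 1 and 2, control 1 and 2. Levels of different genes rest on different probes; within a gene the points mostly lie close together, and H3c15, H2bc8, H2bc4 and H3c7 spread most.

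H2A forms the other part of the H2A-H2B dimer. The 6 H2A probe sets had a median difference of 0.24, with 5 above 0, and the median ran from 0.058 to 0.42 with 1 array left out. H2aw, a replication-dependent H2A gene outside the main clusters, read 11.78 and 11.72 on the deficient arrays, against 11.25 and 11.33 on the control arrays. The groups were separate and the replicates of each lay within 0.079 of each other. The means were 11.75 ± 0.042 and 11.29 ± 0.056 (SD, n = 2 each), a difference of 0.46 (SE 0.14, 95% interval 0.062 to 0.85, limma unadjusted p = 0.0328, adjusted p = 0.408). The probe set that H2aw shares with Trim17 read 7.82 and 7.81, against 7.28 and 7.39, a difference of 0.48 (SE 0.14, limma adjusted p = 0.407). Both contain H2aw, so they are not independent.

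H2ac15 read 11.45 and 11.74 on the deficient arrays, against 11.15 and 11.55 on the control arrays (difference 0.25, SE 0.22). H2ac4 read 8.46 and 9.78, against 8.72 and 9.05 (difference 0.23, SE 0.51), and without deficient replicate 2 the difference was −0.43. H2ac1, a testis histone gene whose partner is H2bc1, read 8.05 and 8.22, against 7.79 and 8.18 (difference 0.15, SE 0.20). In these 3 genes the groups overlapped, and control replicate 1 was low in H2ac15 and H2ac1 beside the other 3 arrays. A further 2 probe sets shared by 18 histone genes, nearly all H2A, read 12.67 and 12.76 against 12.46 and 12.62 (difference 0.17, SE 0.15), and 12.26 and 12.36 against 12.04 and 12.31 (difference 0.14, SE 0.17). The first separated the groups, the only one to do so among the 26 shared by several histone genes, and the second overlapped. H3c4 is among the 18 in both. Both also name H2ax, and the first names H2aj as well.

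H1 proteins bind the linker DNA between nucleosomes. The 5 H1 probe sets had a median difference of 0.27. Of these, 3 separated the groups, all higher on the deficient arrays, where 38.9% of all probe sets did so. H1f1 read 10.25 and 10.52 on the deficient arrays, against 9.64 and 10.06 on the control arrays (difference 0.54, SE 0.23, 95% interval −0.11 to 1.18, limma adjusted p = 0.430). H1f5 read 11.26 and 11.65, against 11.19 and 11.18 (difference 0.27, SE 0.20, and 0.069 to 0.47 with 1 array left out). In both genes deficient replicate 2 was the highest array. H1f6, the testis form H1t, stood at percentile 29.2 of the table, with 5.41 and 5.16, against 4.90 and 4.64 (difference 0.52, SE 0.19, limma adjusted p = 0.421). H1f2 overlapped, at 10.41 and 9.91 against 9.64 and 10.15 (difference 0.27, SE 0.29, and 0.012 to 0.52 with 1 array left out), as did H1f3, at 5.07 and 5.05 against 4.91 and 5.29 (difference −0.038, SE 0.19, and 0.15 without control replicate 2). H1f4 had only a probe set shared with H2bc6, which read 8.64 and 8.45, against 7.96 and 8.85 (difference 0.14, SE 0.36).

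H3, with H4, forms the tetramer at the core of the nucleosome. The 13 H3 probe sets had a median difference of 0.29, and 0 of them separated the groups, against 52.9% of all probe sets. Of these, 10 were shared by the same 12 H3 genes and gave nearly the same values, with differences from 0.26 to 0.32. They read 10.85 to 11.61 and 11.19 to 11.87 on the deficient arrays, against 10.53 to 11.21 and 10.99 to 11.69 on the control arrays. Control replicate 1 was the lowest array in all 10, and deficient replicate 1 lay below control replicate 2 in each. One of them, with the smallest unadjusted p, had a difference of 0.32 (SE 0.24, 95% interval −0.36 to 1.00, limma adjusted p = 0.536). Without control replicate 1 the median of the class was 0.064, and without control replicate 2 it was 0.52.

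The 3 H3 genes with a probe set of their own were dimmer and differed among themselves. H3c15, from the Hist2 cluster, read 7.98 and 5.81 on the deficient arrays, against 5.46 and 6.10 on the control arrays. Its difference was 1.11 (SE 0.83), and 0.029 without deficient replicate 1, which stood apart from the other 3 arrays. H3c4 read 7.43 and 7.14, against 7.16 and 7.18 (difference 0.11, SE 0.17, and −0.029 without deficient replicate 1). H3c7 read 5.41 and 4.11, against 4.37 and 5.69 (difference −0.27, SE 0.68, and 0.39 without control replicate 2), so its replicates lay farther apart than the group means.

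H4 is the most conserved core histone. The 13 H4 probe sets had a median difference of 0.11, with 11 above 0, and the median ran from 0.010 to 0.22 with 1 array left out. Of the 13, 2 separated the groups, or 15.4%, against 52.9% of all probe sets. H4c4, the brightest histone probe set, read 12.98 and 13.14 on the deficient arrays, against 12.89 and 13.02 on the control arrays (difference 0.10, SE 0.15, 95% interval −0.33 to 0.54, limma adjusted p = 0.732). The groups overlapped, and the gap between replicates was larger than that between group means. Of the 6 shared H4 probe sets, 5 named 11 H4 genes each and read 12.76 to 12.87 and 12.96 to 13.06, against 12.67 to 12.78 and 12.82 to 12.91, with differences of 0.10 to 0.12.

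H4c9 read 9.61 and 9.41 on the deficient arrays, against 8.75 and 9.24 on the control arrays (difference 0.51, SE 0.23, limma adjusted p = 0.440). H4c14, from the Hist2 cluster, read 10.55 and 11.14, against 10.31 and 10.52 (difference 0.43, SE 0.26). These were the 2 that separated, and in H4c14 the nearest arrays were 0.032 apart. H4c6 read 10.91 and 11.41, against 10.65 and 10.96 (difference 0.36, SE 0.26). H4f16, the Hist4 gene, read 9.39 and 9.97, against 9.28 and 9.66 (difference 0.21, SE 0.28). The probe set shared by H4c17 and H4c11 read 5.46 and 6.18, against 5.68 and 7.26 (difference −0.65, SE 0.64), and without control replicate 2 the difference was 0.14. H4c3 and H4c8 had differences of 0.040 (SE 0.22) and −0.044 (SE 0.24), with no settled direction: they were −0.020 and 0.13 after a new quantile normalization, and −0.14 to 0.22 and −0.31 to 0.22 with 1 array left out.

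By cluster, the 37 probe sets that name only Hist1 genes had a median difference of 0.11, with 6 separating the groups upwards and 1 downwards. Over all probe sets 38.9% separated upwards and 14% downwards. The 4 Hist2 probe sets had a median of 0.44 and the 4 Hist3 probe sets one of 0.34. In all 4 Hist3 probe sets both deficient arrays lay above both controls. These 4 are not independent genes, since both probe sets that contain H2aw are among them, as is that of the pseudogene H2bu1-ps. The Hist2 median was 0.13 without deficient replicate 1. Probe sets of 1 gene had a median of 0.21 and an SD of differences of 0.41 over 31, and shared ones a median of 0.13 and an SD of 0.19 over 26. Of the 31, 13 separated the groups, or 41.9%, and 1 of the 26 shared ones, against 52.9% of all probe sets.

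Arrays of the same number deviated alike mainly in the shared histone probe sets. The array numbered 2 lay above the array numbered 1 in both groups for 41 of 58 histone probe sets (70.7%), against 31.5% of all probe sets. That was 25 of the 26 shared ones, many of which measure the same genes, and 16 of the 31 with 1 gene. The median gap was 0.21 between the deficient arrays and 0.32 between the control arrays, against 0.031 and 0.069 over all probe sets, and both histone gaps were larger than the median difference between groups, 0.18. In class H3 the gaps were 0.29 and 0.46. The same gaps for S phase and replication genes were −0.24 and −0.077, so those genes did not share the direction. Over all probe sets the deviations of same-numbered arrays correlated at −0.088, and the labels name no batch behind the numbers. With replicate number as a block in limma's fit, 0 histone probe sets were lower and 0 higher at an unadjusted p under 0.05. Under the same fit 8.46% of all probe sets passed, in either direction.

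**Figure D3:**
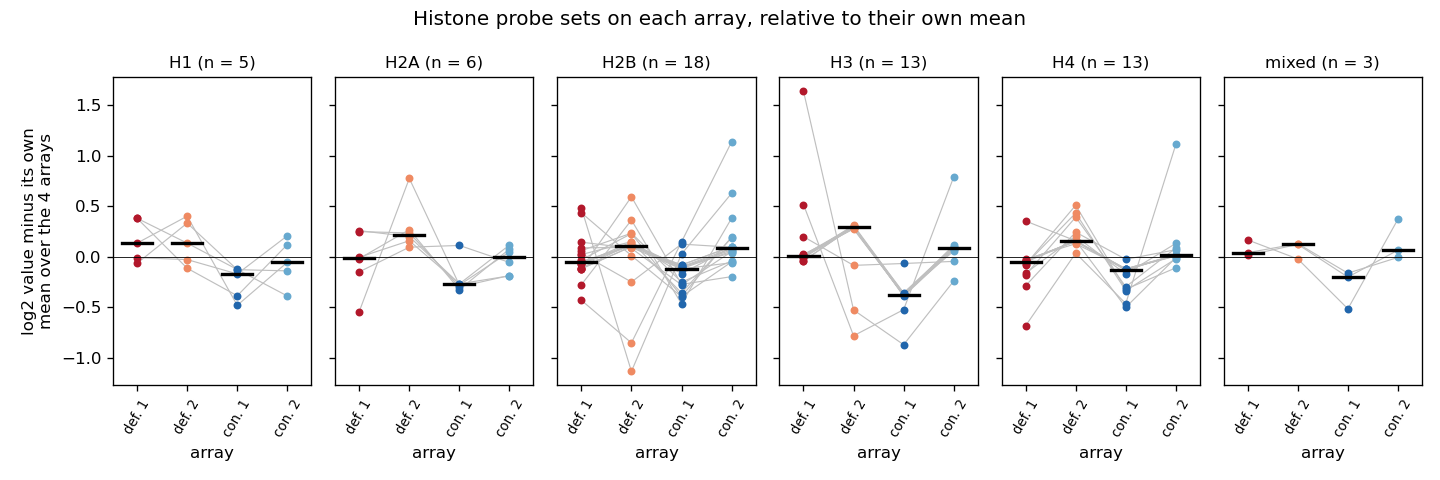
Value of each histone probe set on each array minus its own mean over the 4 arrays (y axis, log2), by class, with the GABPα-deficient arrays (def.) left of the control arrays (con.). Grey lines join the values of 1 probe set and black bars are medians; control 1 is lowest in each class median, and deficient 2 is highest in all but class H1.

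Genes that make, carry or accompany the same histones were set beside them. The 12 measured replication-independent histone genes had a median difference of 0.058 (−0.11 under cyclic loess). Their products replace the clustered histones outside S phase or mark special chromatin. At an unadjusted p under 0.05 in limma's fit, 1 was lower and 1 higher, where 5.25% and 6.64% of all probe sets were. After adjustment 0 passed. Macroh2a1, a variant with a large extra domain, read 10.11 and 10.11 on the deficient arrays, against 11.56 and 11.28 on the control arrays (difference −1.31, SE 0.17, limma adjusted p = 0.252). Cenpa, the centromeric H3, read 10.45 and 9.85, against 8.86 and 8.59 (difference 1.42, SE 0.27, limma adjusted p = 0.328). The groups were separate in these 2 genes, as in 52.9% of all probe sets. Macroh2a2 had a difference of −1.03 (SE 0.44) and H2aj one of 0.26 (SE 0.15). H2ax, the variant of DNA damage signalling, read 10.45 and 10.52, against 10.37 and 11.01 (difference −0.21, SE 0.27). H2az1, a variant at gene starts, read 12.83 and 12.97, against 12.85 and 12.91 (difference 0.025, SE 0.15).

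The 21 genes for histone transcription, mRNA processing or decay had a median of −0.092. At an unadjusted p under 0.05 in limma's fit, 1 was lower and 0 were higher, where 5.25% and 6.64% of all probe sets were. Slbp, which binds the histone stem-loop, read 9.13 and 9.37 on the deficient arrays, against 9.13 and 9.14 (difference 0.12, SE 0.16, 95% interval −0.34 to 0.57). Npat read 3.97 and 4.21, against 3.92 and 3.98 (difference 0.14, SE 0.16), below the lower quartile of each array, 4.68 to 4.86. Casp8ap2, the histone locus body protein FLASH, read 5.32 and 7.16, against 5.87 and 4.70 (difference 0.95, SE 0.81), with deficient replicates farther apart than the groups. Cstf2, a cleavage factor, had a difference of −0.53 (SE 0.15), Srrt, a cap-binding partner, one of 0.40 (SE 0.16), Cpsf2, a subunit of the cleavage complex, −1.24 (SE 0.57), and Snrpb 0.35 (SE 0.22). Of 22 chaperone and assembly genes, 0 passed at an unadjusted p under 0.05 in limma's fit, against 11.9% of all probe sets, and 0 after adjustment. Their median was −0.11, with Ubn1 at −0.77 (SE 0.30), Mms22l at −0.68 (SE 0.28), Hira at 0.41 (SE 0.18) and Rbbp4 at −0.31 (SE 0.17).

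Among 37 S phase and replication genes the median difference was 0.12, and 0.052 to 0.22 with 1 array left out. Differences were above 0 for 21 genes and below 0 for 16, from −1.60 to 1.80. At an unadjusted p under 0.05, 1 was lower and 5 were higher, where 5.25% and 6.64% of all probe sets were, and 0 passed after adjustment. Ccne1, cyclin E1, read 9.56 and 8.77 on the deficient arrays, against 7.45 and 7.27 on the control arrays (difference 1.80, SE 0.33, limma adjusted p = 0.317). Rrm2, a subunit of ribonucleotide reductase, had a difference of 0.95 (SE 0.28), Fen1, a flap endonuclease, 0.56 (SE 0.17), and Cdc6, which loads the replicative helicase, 0.48 (SE 0.14). Pcna, the sliding clamp of replication, read 12.18 and 12.27, against 12.38 and 12.17 (difference −0.051, SE 0.16). Among 19 mitosis genes the median was −0.074 (0.15 among the brighter 50% of probe sets), with 0 lower and 5 higher at the same threshold. Differences were above 0 for 8 of the 19 and below 0 for 11, down to −1.25. Ube2c, Plk1, Birc5 and Ccnb2, those with the smallest unadjusted p, had differences of 0.76, 0.77, 0.62 and 0.52. Mki67, the proliferation antigen, had one of 0.33 (SE 0.35). On the same arrays erythroid markers had a median difference of 1.86 and stem cell markers one of −1.02.

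**Figure D4:**
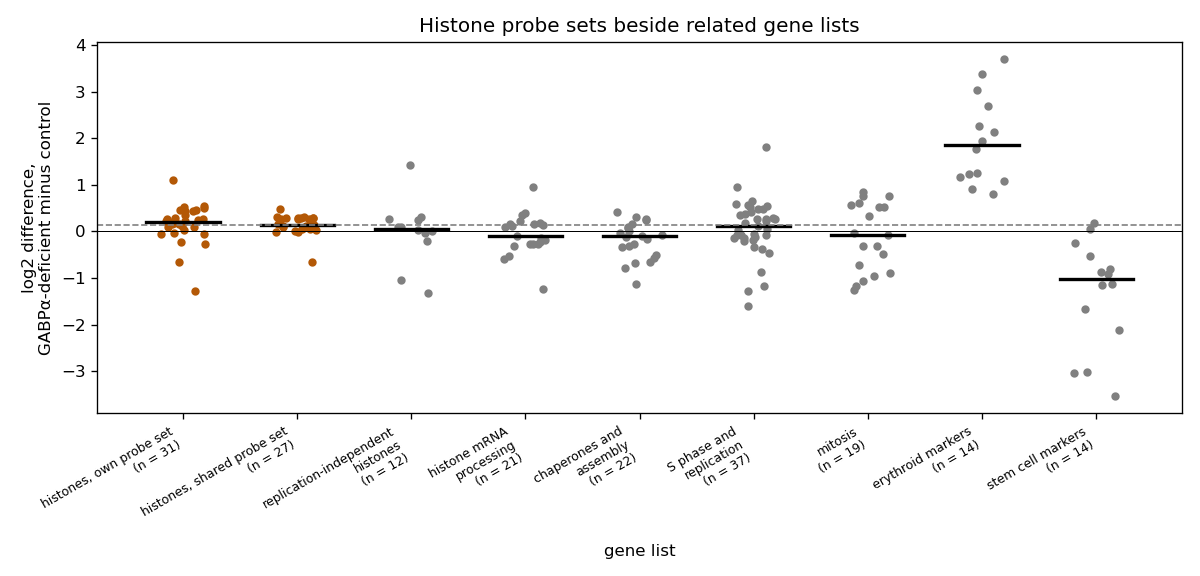
Log2 difference, GABPα-deficient minus control (y axis), of histone probe sets (orange) and of single genes in related lists (grey), 1 point each, with black bars for medians and a dashed line for the median of all probe sets. The histone medians, 0.21 for probe sets of 1 gene, lie beside the dashed line at 0.15, while the erythroid median is 1.86 and the stem cell median −1.02.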

How the data were processed

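RNA from sorted Flt3-negative LSK cells was amplified and hybridised to 4 Affymetrix Mouse Gene 1.0 ST arrays, 2 per group. The authors deposited a table of log2 values with 1 row for each probe set. RMA and Partek stand in the submitters' processing notes, without versions. RMA removes background, usually brings all arrays to 1 distribution and combines the probes of a set. The deposited arrays still differed, with medians from 5.87 to 6.01 and upper quartiles from 7.18 to 7.39. Genome build: not given in the sources used here. The table has 0 columns without a sample. No log, filter or normalization was added. Array data carry no read depth, so the number of arrays limits the precision, and 2 against 2 arrays give wide intervals.

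Of 35556 probe sets, 21789 had 1 gene symbol in the platform annotation, 1621 several and 12146 none. Groups were compared in R 4.3.3 with limma 3.58.1 (lmFit, eBayes, genotype only) and p-values were adjusted by Benjamini-Hochberg across the whole table. Differences are deficient minus control, with moderated SE and 95% intervals. The procedure was tested on simulated data. Related lists used probe sets with 1 gene symbol, the brightest where a gene had several. Values on all 4 arrays are given for up to 6 probe sets per class with the smallest unadjusted p, and up to 4 genes per related list are named. Further members, and the genes Slbp, Npat, Casp8ap2, Pcna, Mki67, H2ax, H2az1 and Gabpa, are named whatever their values. H2bc4, H2bu2, H3c4, H3c7 and H4c4 were given in full after their values were seen. Members and lists were chosen with earlier results of these data known. Figures used matplotlib 3.10.9. Alternatives covered normalization, dim probe sets, the variance prior, a replicate block, single arrays and shared probe sets, and counting identical probe sets once was added after seeing the data.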

Additional observations from a re-analysis of the deposited data

How the results depend on the processing

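No histone probe set passed an adjusted p under 0.05 under any alternative. At an unadjusted p under 0.05, 2 of 58 histone probe sets were higher on the deficient arrays as deposited, where 2360 of 35556 were. With array medians subtracted 1 was higher, where 1537 of 35556 were. Among the brighter 50% of probe sets 1 of 53 was higher, where 964 of 17778 were. Of the 31 probe sets of 1 histone gene, 1 was higher as deposited, a count that rests on fewer probe sets. With replicate number as a block, which shares only a number between arrays, 0 were lower and 0 higher, against 8.46% of all probe sets in either direction. Leaving out 1 array leaves a group with 1 array, so no count at this threshold is given for it. Separated groups numbered 8 higher and 4 lower under cyclic loess. With 1 array left out they numbered 13 to 46 higher and 3 to 9 lower, where 3 arrays overlap less easily. The share of all probe sets under these settings is not given here, so these counts cannot be set against it. Cyclic loess moved the median of all probe sets to −0.0045 and that of histones to 0.13, and subtracting array medians gave 0.065 and 0.095. The Hist3 median was 0.25 under cyclic loess, 0.26 with array medians subtracted, 0.46 among the brighter 50%, 0.23 for probe sets of 1 histone gene and 0.28 to 0.44 with 1 array left out. The Hist2 median ran from 0.13 to 0.58, that of class H2A from 0.058 to 0.42, H3 from 0.064 to 0.52 and H4 from 0.010 to 0.22. The median of replication-independent histones was −0.11 under cyclic loess and −0.023 with array medians subtracted. That of class H2B was −0.012 with array medians subtracted, and that of mitosis genes 0.15 among the brighter 50%. With 1 array left out, the medians that changed sign were those of class H2B (−0.065 to 0.18), Hist1 (−0.0085 to 0.21), mitosis genes (−0.14 to 0.30) and processing genes (−0.15 to 0.050).

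With any 1 array left out, 23 of the 58 histone probe sets changed sign, 13 of them with 1 gene. Those with 1 gene, and other named probe sets and genes that changed sign, were H1f3 (−0.23 to 0.15), H2ac1 (−0.040 to 0.35), H2ac4 (−0.43 to 0.89), H2ac8 (−0.18 to 0.067), H2bc4 (−1.46 to 0.155), H2bc9 (−0.096 to 0.49), H2bc14 (−0.10 to 0.44), H2bc3 (−0.34 to 0.51), H3c4 (−0.029 to 0.26), H3c7 (−0.92 to 0.39), H4c3 (−0.14 to 0.22), H4c8 (−0.31 to 0.22), the H4c17 and H4c11 probe set (−1.44 to 0.14), H4f16 (−0.075 to 0.50), the H2bc6 and H1f4 probe set (−0.30 to 0.59), Slbp (−0.0054 to 0.24), Pcna (−0.15 to 0.052), Mki67 (−0.090 to 0.76), H2ax (−0.53 to 0.11), H2az1 (−0.046 to 0.096) and Gabpa (−1.42 to 0.0021). Npat was −0.0155 under cyclic loess, H2az1 −0.056 and H4c3 −0.041 with array medians subtracted, and H4c3 −0.020 and H4c8 0.13 after a new quantile normalization. Sign changes among the 58 numbered 1 under cyclic loess, 6 with array medians subtracted and 2 after a new quantile normalization. The cause of these changes was not tested. The trended and robust priors change only the variances and leave each difference as it was, so they cannot turn a sign. With these priors, a new quantile normalization or identical probe sets counted once, no count moved past 1.5 times. An array has no depth, and 2 arrays a group limit every interval.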
